A study of Mus musculus with 11 samples.

Results

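Transcripts of 10 genes of the MHC class I pathway were examined in mouse colon with and without a human gut microbiota: the classical heavy chains H2-K1 and H2-D1, the light chain B2m, the non-classical heavy chains H2-Q1, H2-Q2, H2-Q4, H2-T3 and H2-M3, and the peptide transporter subunits Tap1 and Tap2. They were chosen by gene symbol from the 43346 genes of the count table, and all 10 were among the 19863 genes that passed the low-expression filter. Polyadenylated RNA of colonic tissue had been sequenced from 5 germ-free Swiss Webster mice and from 6 Swiss Webster mice that started life germ-free and were colonized at 4–5 weeks of age by gavage of 300 µL of stool suspension from a single human donor. All animals were male, lived singly in isolators on an autoclaved diet, and were studied at 8–10 weeks. Humanized mice therefore represent the microbiota of 1 donor in outbred animals. Reads were aligned to the mm10 reference, which is of another strain, C57BL/6J, and how far class I alleles that differ from it lower or shift the counts was not tested, so levels, shares and ratios of heavy chains hold for reads that align to that reference. Between 49097005 and 64148538 reads per germ-free mouse and between 39125290 and 54219854 per humanized mouse were counted on genes.

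MHC class I molecules show peptides from inside the cell to CD8 T cells. A polymorphic heavy chain pairs with β2-microglobulin in the endoplasmic reticulum, where it is loaded with peptides that the proteasome has cut and the TAP transporter has imported. Classical heavy chains are made by nearly all nucleated cells, while non-classical heavy chains are less polymorphic and more restricted in tissue or ligand. Interferon γ and NF-κB signals are known to raise class I transcription through short upstream elements.

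Of the 10 genes, 9 lie on chromosome 17. H2-K1 (chr17:33996017-34000333, mm10, minus strand) comes first by position, followed by Tap1 (34187553 to 34197225) and Tap2 (34203527 to 34216321), then H2-D1 (35262730 to 35267499), H2-Q1 (35320405 to 35325099), H2-Q2 (35342242 to 35346762) and H2-Q4 (35379617 to 35385290). H2-T3 (36185572 to 36190287) and H2-M3 (37270220 to 37274484) lie further along the same chromosome, and B2m is on chromosome 2 from 122147686 to 122153083.

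The promoters of these genes are shown because they differ in the elements that class I genes are known for. RefSeq windows of GRCm38.p6, from 250 bases before the start site to 50 bases from it, were given for 8 of the 10 genes, and H2-Q1 and Tap2 had no entry. The stretch from 180 bases before the start site through the first 30 bases of the transcript is printed for 7 of them, 5′ to 3′ on the strand of the gene. Capitals mark matches, on either strand, to GGGATTCC, GGGATTTCC or GGGACTTTC (NF-κB-type), TTTCACTT or TTTCNNTTT (IRF-type, which overlap each other), TGACG (CRE-type), ATTGG (NF-Y-type) and TATAAA (TBP-type). These spellings were chosen after the windows had been read.
H2-K1, chr17:34000304-34000513, minus strand: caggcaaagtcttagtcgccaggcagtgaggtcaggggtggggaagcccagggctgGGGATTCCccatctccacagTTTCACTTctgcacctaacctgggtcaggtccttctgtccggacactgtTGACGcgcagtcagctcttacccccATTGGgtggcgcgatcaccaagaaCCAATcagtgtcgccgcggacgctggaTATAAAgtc
H2-D1, chr17:35262914-35263123, plus strand: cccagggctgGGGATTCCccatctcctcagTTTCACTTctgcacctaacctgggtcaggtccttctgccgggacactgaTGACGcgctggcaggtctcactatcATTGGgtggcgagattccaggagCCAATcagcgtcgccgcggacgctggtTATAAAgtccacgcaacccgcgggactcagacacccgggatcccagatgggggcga
H2-Q4, chr17:35379437-35379646, plus strand: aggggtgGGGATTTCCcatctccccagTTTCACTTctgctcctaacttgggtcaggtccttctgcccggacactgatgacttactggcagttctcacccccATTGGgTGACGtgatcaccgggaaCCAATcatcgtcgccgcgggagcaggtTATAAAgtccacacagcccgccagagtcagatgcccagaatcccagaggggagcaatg
H2-Q2, chr17:35342127-35342336, plus strand: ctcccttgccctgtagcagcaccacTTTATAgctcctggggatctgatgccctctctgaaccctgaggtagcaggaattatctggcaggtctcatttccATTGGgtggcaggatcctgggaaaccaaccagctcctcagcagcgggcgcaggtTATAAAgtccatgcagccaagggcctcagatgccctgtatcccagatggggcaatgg
H2-T3, chr17:36190122-36190331, minus strand: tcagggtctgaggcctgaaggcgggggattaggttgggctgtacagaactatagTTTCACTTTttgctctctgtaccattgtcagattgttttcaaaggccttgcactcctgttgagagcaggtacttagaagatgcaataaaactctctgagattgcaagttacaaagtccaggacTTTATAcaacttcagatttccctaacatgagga
H2-M3, chr17:37270054-37270263, plus strand: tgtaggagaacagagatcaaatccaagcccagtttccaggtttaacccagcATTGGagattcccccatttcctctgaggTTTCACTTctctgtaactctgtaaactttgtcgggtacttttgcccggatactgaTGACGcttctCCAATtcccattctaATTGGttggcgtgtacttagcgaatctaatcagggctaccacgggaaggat
B2m, chr2:122147507-122147716, plus strand: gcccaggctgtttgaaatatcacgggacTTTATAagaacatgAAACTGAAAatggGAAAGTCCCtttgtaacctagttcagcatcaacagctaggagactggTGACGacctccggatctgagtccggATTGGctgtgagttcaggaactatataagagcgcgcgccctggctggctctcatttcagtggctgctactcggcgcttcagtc

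An NF-κB-type match was found in 4 of the 8 windows (H2-K1, H2-D1, H2-Q4 and, on the opposite strand, B2m), against 1.74% of 32851 promoter windows. An IRF-type match was found in 6 of 8, against 11.4% of all windows, and was lacking in H2-Q2 and Tap1. The 8-letter IRF-type spelling TTTCACTT alone occurred in 1.6% of all windows and was present in H2-K1, H2-D1, H2-Q4, H2-T3 and H2-M3. CRE-type letters were in 6 of 8 windows (20.8% of all), NF-Y-type letters in 7 (37.4% of all) and TBP-type letters in 6 (13.6% of all). Since the spellings were chosen after these windows had been read, the shares of all windows give no test of an excess.

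H2-K1, H2-D1 and H2-Q4 carried NF-κB-type, IRF-type, CRE-type, NF-Y-type and TBP-type letters, with the IRF-type match 20 bases after the start of the NF-κB-type match in each. In H2-K1 and H2-D1 the CRE-type match lay upstream of both NF-Y-type matches. In H2-Q4 the CRE-type match on the gene strand lay between them, so its place is not the same. The H2-D1 window was 74.7% identical to that of H2-Q4 in a global alignment, 64.8% to H2-K1 and 59.8% to H2-Q2. The windows of H2-D1, H2-Q4 and H2-K1 are thus related sequences and not independent occurrences of a motif. For comparison, the H2-D1 window was 49.7% identical to the window of Tap1, a gene of another family. Not all pairs were that close, since H2-K1 was 45.1% identical to H2-Q2 and 48.1% to Tap1. H2-Q2 had 1 NF-Y-type match, 81 bases before the start site, where H2-D1 and H2-Q4 each had 2, and TBP-type matches 27 bases before it and, on the opposite strand, 155 bases before it. The 3 other kinds were not spelled in its window. The H2-K1 start site of RefSeq lies upstream of its TBP-type match, which begins 21 bases after it. A match describes letters only, and the missing spellings say nothing about binding of a factor.

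**Figure D1:**
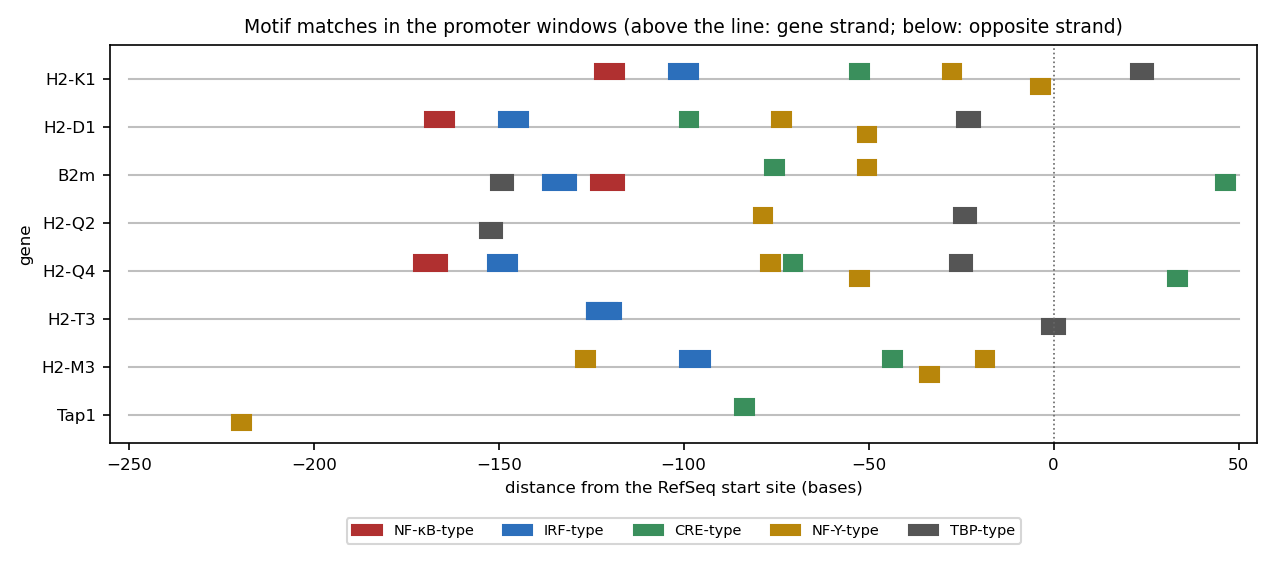
Positions of motif matches in the RefSeq promoter windows of 8 genes; the horizontal axis is the distance from the start site in bases, boxes above a line are on the strand of the gene and boxes below it on the opposite strand. NF-κB-type matches (red) stand in H2-K1, H2-D1, B2m and H2-Q4, and H2-Q2 has only NF-Y-type and TBP-type matches.

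Both classical heavy chains, the light chain and 3 of the 5 non-classical heavy chains had higher expression in humanized mouse colon. At FDR below 0.01 (edgeR's exact test, adjusted over all tested genes), these 6 of the 10 genes (H2-K1, H2-D1, B2m, H2-Q1, H2-Q2 and H2-Q4) were higher, where 9.2% of all tested genes did. None of the 10 had lower expression, where 10.1% of all tested genes did, and none was lower at an unadjusted p below 0.05, or by edgeR's quasi-likelihood test or DESeq2, which called 6 and 7 of the 10 higher. Over all tested genes these 2 tests called 1401 and 2185 higher, and 1298 and 2182 lower. At FDR below 0.05 the exact test called 2780 higher and 2905 lower, all of which are at an unadjusted p below 0.05. The median log2-fold change of humanized over germ-free mice (LFC) was 0.35 over the 10 genes and 0.0084 over all tested genes. For 6 of the 10 genes the ranges lay apart, all higher in humanized mice, where 8.67% of tested genes were higher without overlap and 9.73% lower.

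These calls depended on how libraries were scaled. The main analysis used TMM factors, which lay between 1.03 and 1.12 in germ-free and between 0.876 and 1.03 in humanized mice. Scaling to total counts shifted the median LFC of all genes by −0.18 and left 4 of the 10 genes higher (H2-D1, B2m, H2-Q1 and H2-Q2, against 3.89% of all genes), with 773 genes higher and 3609 lower in all. Scaling to 11 epithelial marker genes shifted it by −0.25 and left only H2-Q2, at an LFC of 0.95 (FDR = 8.55e-10, exact test), against 2.47% of all genes. Relative to the median of all genes, the LFC of the 10 genes had a median of 0.34 with TMM, from 0.01 (H2-M3) to 1.22 (H2-Q2). This difference from the median is nearly the same under the other scalings by construction, since a scaling moves all genes together. In bulk tissue, a change in the number of cells of a type and a change in RNA per cell cannot be told apart.

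**Figure D2:**
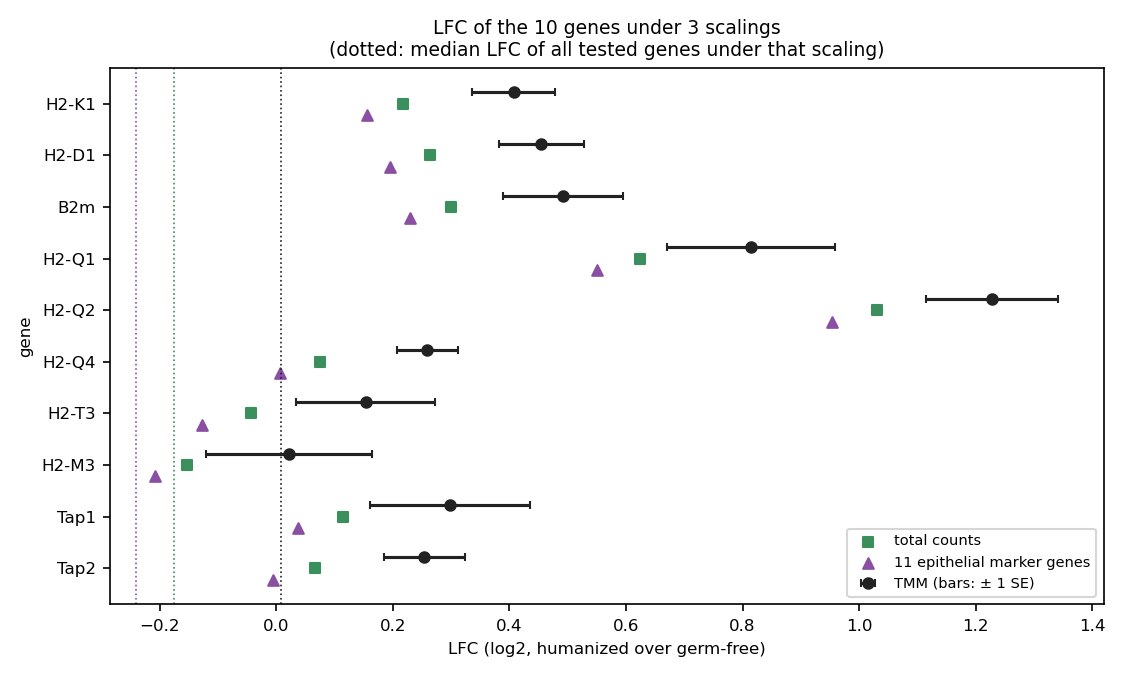
LFC of humanized over germ-free mice (log2, horizontal axis) for each gene with TMM normalization (black, ± 1 SE of the quasi-likelihood fit), total counts (green) and scaling to 11 epithelial marker genes (purple); dotted lines are the median of all tested genes under that scaling. H2-Q2 lies farthest to the right under each, while H2-T3 and H2-M3 fall below 0 under total counts and, with Tap2, under epithelial scaling.

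Marker genes of other cell types moved with the group in the same libraries. All 9 smooth muscle markers were lower in humanized mice, with a summed level of 279 to 853 RPKM in germ-free and 38.0 to 297 RPKM in humanized mice, and so were 5 of 6 fibroblast markers (191 to 308 against 21.3 to 158 RPKM). Of 8 T and NK cell markers, 6 were higher (8.83 to 10.1 against 15.1 to 41.2 RPKM), and of 5 B and plasma cell markers 2 were (1.88 to 4.80 against 5.43 to 36.5 RPKM). Of 11 epithelial markers, 3 were higher, namely Krt18, Lgals4 and Elf3, and the summed levels of the groups overlapped (4515 to 6158 against 5181 to 7369 RPKM). Of 6 markers of colon identity, 1 was higher, the carbonic anhydrase gene Car1, with summed levels of 3439 to 4893 against 7923 to 12443 RPKM. Endothelial (15.2 to 17.8 against 1.85 to 13.7 RPKM) and general leukocyte markers (21.4 to 25.1 against 17.4 to 49.01 RPKM) had no member past the threshold by the exact test or the quasi-likelihood test, with 4 of 5 endothelial markers lower and 2 of 6 leukocyte markers higher at an unadjusted p below 0.05, and DESeq2 called 1 of each. Without humanized mouse 5 the exact test called those numbers, 4 lower and 2 higher, where 11.5% of all genes were lower and 9.52% higher. Of all 19863 tested genes, DESeq2 called 2182 lower and 2185 higher. At an unadjusted p below 0.05 at least 2905 were lower and 2780 higher. The quasi-likelihood test called 6 smooth muscle and 3 fibroblast markers lower and 1 B and plasma cell marker higher, and the same numbers as the exact test in the other lists. Under total counts the exact test called 3 endothelial markers lower, and 2 epithelial and 1 B and plasma cell marker higher. Under epithelial scaling it called 1 endothelial marker lower, and 3 T and NK cell, 1 B and plasma cell and no epithelial markers higher. Of 6 myeloid markers, 1 was higher, Cd14, and 2 were lower at an unadjusted p below 0.05 but not at the threshold, Csf1r at an LFC of −0.53 and Cd68 at −0.74. Summed levels of the list were 116 to 138 against 102 to 238 RPKM, most of it from Lyz2 and Cd14. No marker was at 0 in every mouse, and the part of these cell types in the class I values was not tested.

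**Figure D3:**
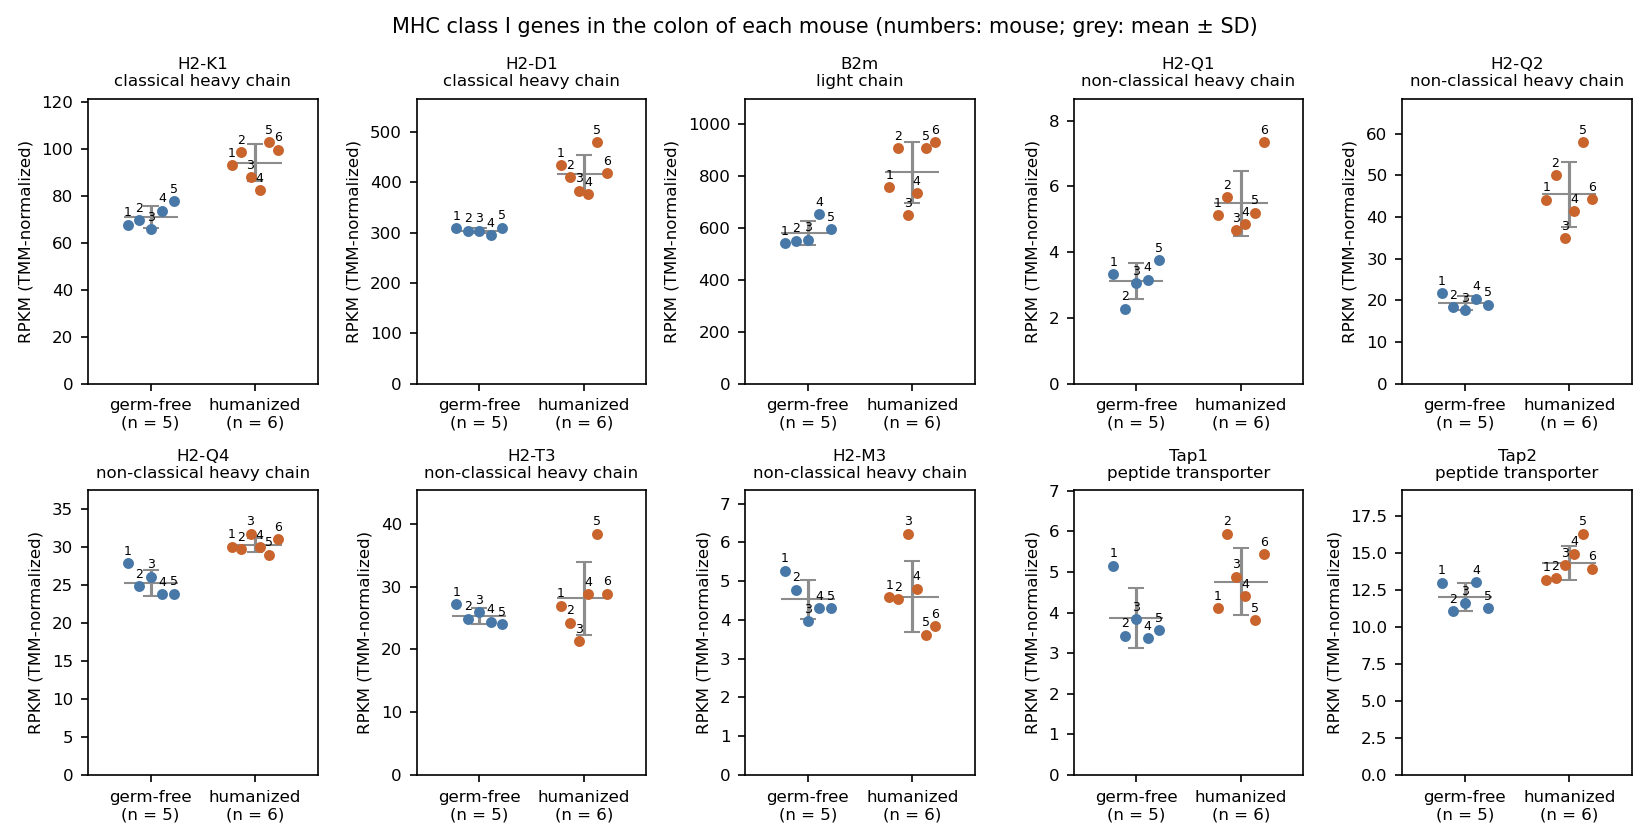
TMM-normalized expression of the 10 genes in each mouse (RPKM, vertical axis from 0 and separate for each gene), with mouse numbers beside the points and the mean ± SD in grey. The groups separate for H2-K1, H2-D1, H2-Q1, H2-Q2, H2-Q4 and Tap2, and B2m overlaps only through germ-free mouse 4 and humanized mouse 3.

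Both classical heavy chain genes were higher in every humanized mouse than in any germ-free mouse. H2-K1 was at 67.9, 69.6, 66.0, 73.8 and 77.9 RPKM in germ-free mice 1 to 5, and at 82.4 RPKM in the lowest, 96.0 at the median and 103 in the highest of the humanized mice. The difference was an LFC of 0.41 (SE 0.07, FDR = 1.71e-05), or 1.33-fold. It lost its call under total counts, at an LFC of 0.22 (FDR = 0.02, exact test), and under epithelial scaling, at 0.16 (FDR = 0.267, exact test).

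H2-D1, the other classical gene, was the more abundant per length, at 308, 304, 304, 295 and 309.5 RPKM in the germ-free mice. Humanized mice had 376, 414 and 479.5 RPKM as the lowest, median and highest values, so the groups lay apart by more than the whole germ-free range. Its LFC was 0.45 (SE 0.07, FDR = 3.88e-07). Under epithelial scaling the LFC was 0.20 and lost its call (FDR = 0.154, exact test). The coefficient of variation of H2-D1 was 1.91% among the germ-free and 9.02% among the humanized animals.

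B2m, which encodes β2-microglobulin, had the highest level per length of the 10 genes. It stood at 540.3, 551, 554, 654 and 594 RPKM in the germ-free mice and at 648, 831 and 929 RPKM as the lowest, median and highest of the humanized mice. Humanized mouse 3 lay just below germ-free mouse 4, and the 5 other humanized mice lay above all germ-free mice. The LFC was 0.49 (SE 0.10, FDR = 1.00e-04). Under epithelial scaling it was 0.23 and lost its call (FDR = 0.105, exact test).

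Non-classical heavy chains did not move as a block. H2-Q2 had the largest LFC of the 10 genes, 1.23 (SE 0.11, FDR = 4.63e-21), or 2.34-fold. Its values were 21.8, 18.3, 17.6, 20.4 and 18.9 RPKM in the germ-free mice, and 34.9, 44.2 and 57.9 RPKM as the lowest, median and highest of the humanized mice. The lowest humanized mouse thus stood well above the highest germ-free mouse. H2-Q2 was called higher in every alternative fit of the single gene.

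H2-Q1, a neighbour of H2-Q2 in the Q region, was expressed at 3.33, 2.28, 3.05, 3.16 and 3.76 RPKM in germ-free mice. Humanized mice had 4.68, 5.16 and 7.34 RPKM as the lowest, median and highest values, without overlap (LFC 0.81, SE 0.14, FDR = 1.50e-05). Under epithelial scaling its LFC was 0.55 (FDR = 0.0139, exact test). H2-Q1 shared 7.92% of its 101-base sequences with transcripts of other genes, among them H2-Q2 and the far more abundant H2-D1. H2-Q2 shared 5.0% of its own with H2-Q1, and H2-D1 shared 3.55% with H2-Q1 and other genes. Some reads could thus be counted for either gene of such a pair or for neither, depending on counting options that are not stated. Their part in the H2-Q1 value was not tested.

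H2-Q4 moved least among the genes that passed the threshold. Its 5 germ-free values were 27.9, 24.9, 26.1, 23.8 and 23.9 RPKM, against 29.0, 30.03 and 31.7 RPKM as the lowest, median and highest in humanized mice. The groups lay close without overlapping (LFC 0.26, SE 0.05, FDR = 0.0013). The LFC was 0.08 under total counts and 0.0058 under epithelial scaling. Without germ-free mouse 4 or 5 it was 0.24 in either case, past the threshold in neither (FDR = 0.012 and 0.0114, exact test). Of the exon bases of H2-Q4, 19.1% lie opposite the gene Gm11131, and the library kit does not mark strand, so reads of this stretch cannot be told apart.

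H2-T3 and H2-M3 did not pass the threshold. H2-T3 encodes the thymus leukemia antigen, a class I molecule of intestinal epithelium that binds CD8αα and presents no peptide. Its values were 27.2, 24.9, 25.9, 24.4 and 24.0 RPKM in germ-free mice, and 21.3, 27.9 and 38.4 RPKM as the lowest, median and highest of the humanized mice. Humanized values reached both below and above the germ-free range. The LFC of 0.15 (FDR = 0.412, 95% interval −0.08 to 0.39) turned negative under both other scalings, ran from 0.042 (without humanized mouse 5) to 0.22 (without humanized mouse 3) when 1 mouse was left out, and was −0.00019 without humanized mice 5 and 6.

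H2-M3 presents N-formylated peptides, which are made by bacteria and mitochondria. It was among the least abundant of the 10 genes, at 5.27, 4.78, 3.97, 4.31 and 4.31 RPKM in the germ-free mice and at 3.62, 4.56 and 6.22 RPKM as the lowest, median and highest of the humanized mice. The germ-free range lay inside the humanized range. The LFC was 0.02 (FDR = 0.952), and the 95% interval from −0.26 to 0.30 leaves room for differences of about the size seen for H2-Q4.

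Tap1 and Tap2 encode the subunits that together form the TAP transporter. Tap1 was at 5.15, 3.43, 3.84, 3.38 and 3.56 RPKM in germ-free mice and at 3.81, 4.65 and 5.94 RPKM as the lowest, median and highest in humanized mice. The groups overlapped, since germ-free mouse 1 exceeded 4 of the 6 humanized mice (LFC 0.30, SE 0.14, FDR = 0.128). Of its exon bases, 3.87% lie opposite Psmb9.

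Tap2 was more abundant per length, at 13.0, 11.1, 11.6, 13.1 and 11.3 RPKM in germ-free mice. Its humanized values of 13.2 (lowest), 14.1 (median) and 16.3 RPKM (highest) all lay above the germ-free ones, by a narrow margin. The LFC of 0.25 (SE 0.07, FDR = 0.0118) missed the threshold, was past it with DESeq2 (FDR = 0.00806) and without humanized mouse 1 (FDR = 0.00919, exact test), and was −0.0065 under epithelial scaling. Of the Tap2 exon bases, 18.5% lie opposite Gm15821 or Gm20496.

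The order of the genes by level per length differed in part between the groups. In germ-free mice B2m, H2-D1 and H2-K1 came first, at the 99.7th, 99.5th and 96.5th percentile of all tested genes. H2-Q4 (25.3 ± 1.71 RPKM, SD, n = 5) and H2-T3 (25.3 ± 1.28) did not differ beyond their spread, H2-Q2 (19.4 ± 1.68) and Tap2 (12.0 ± 0.949) followed, and H2-M3 (4.53 ± 0.506), Tap1 (3.87 ± 0.737) and H2-Q1 (3.11 ± 0.539) came last. The range of Tap1 overlapped those of H2-M3 and H2-Q1, while H2-Q1 was below H2-M3 in 5 of 5 germ-free mice. H2-Q2 was below both H2-Q4 and H2-T3 in 5 of 5 germ-free mice and above both in 6 of 6 humanized mice. In humanized mice H2-Q2 (45.5 ± 7.85 RPKM, SD, n = 6) came next after H2-K1, H2-Q4 (30.3 ± 0.980) and H2-T3 (28.1 ± 5.82) overlapped, and so did H2-Q1 (5.48 ± 0.974), Tap1 (4.76 ± 0.816) and H2-M3 (4.60 ± 0.918). H2-M3 was above Tap1 in 5 of 5 germ-free mice and in 3 of 6 humanized mice.

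H2-K1 and H2-D1 together made up 75.4% to 77.5% of the counts of all H2 class I heavy chain genes in germ-free and 74.7% to 77.1% in humanized mice, with overlapping ranges. H2-Q2 made up 3.05% to 3.68% in germ-free and 4.80% to 6.41% in humanized mice, without overlap. For H2-T3 this was 5.06% to 5.75% against 3.67% to 5.32%, with overlap. Per length, the 5 non-classical members made up 16.2% to 18.5% of the summed RPKM of the 7 heavy chain members in germ-free and 17.3% to 19.3% in humanized mice, and each humanized mouse was above 4 of the 5 germ-free mice. The differences in these shares were not tested. Summed to a single value, the heavy chain genes had an LFC of 0.45 (FDR = 2.18e-07, exact test).

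Ratios of the counts of 2 genes within a mouse do not depend on library scaling, and 4 were compared by an exact permutation test over the 462 splits of the mice. The H2-D1 to H2-K1 ratio was 4.25 ± 0.294 (SD, germ-free, n = 5) against 4.38 ± 0.226 (SD, humanized, n = 6; two-sided exact p = 0.394, adjusted over 4 ratios 0.525). The B2m to H2-K1 ratio was 2.69 ± 0.158 against 2.84 ± 0.243 (exact p = 0.275, adjusted 0.525). Both ratios thus differed by less than the spread between mice while each of these genes rose.

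H2-T3, a non-classical gene that did not pass the threshold, does not stand for the other non-classical genes. The H2-T3 to H2-K1 ratio, which sets it against a classical gene, was 0.375 ± 0.0413 in germ-free and 0.312 ± 0.0560 in humanized mice. It was lower by 0.28 on the log2 scale, and this missed the threshold (exact p = 0.0714, adjusted 0.286). The Tap1 to Tap2 ratio was 0.466 ± 0.0714 against 0.487 ± 0.109 (exact p = 0.801, adjusted 0.801).

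**Figure D4:**
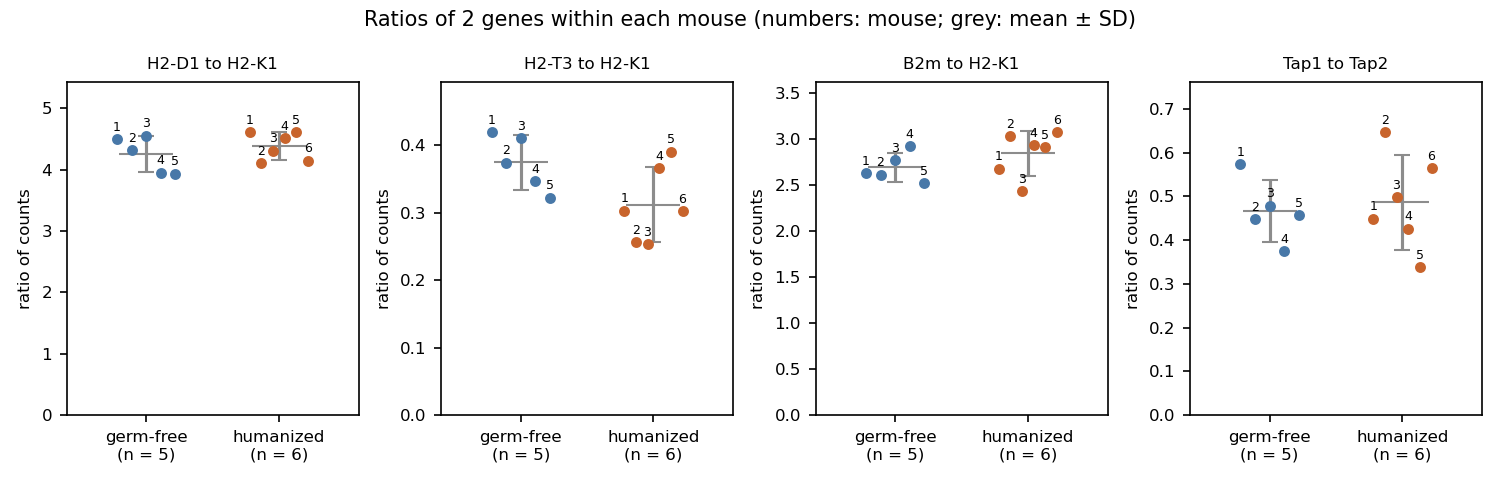
Ratios of the counts of 2 genes in each mouse (vertical axis from 0, no unit), with mouse numbers and the mean ± SD in grey. Groups overlap in all 4 panels, and for H2-T3 to H2-K1 humanized mice 2 and 3 are lowest, at 0.257 and 0.254.

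Humanized mice varied more than germ-free mice. The coefficient of variation was larger in humanized mice for 8 of the 10 genes, with a median of 7.98% in germ-free and 15.8% in humanized mice, near the medians of all tested genes (10.4% and 16.5%). Humanized mouse 5 was the highest humanized mouse for H2-K1, H2-D1, H2-Q2, H2-T3 and Tap2, and the lowest for H2-Q4, H2-M3 and Tap1. It also had the lowest summed smooth muscle (38.0 RPKM), fibroblast (21.3), endothelial (1.85), leukocyte (17.4) and myeloid (102) markers of all mice. Without it, the same 6 genes passed the threshold.

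The genes most like 3 of the members, by the correlation of log2 CPM over the 11 mice after subtraction of each group mean, were sought among 10371 genes with a mean of at least 10 CPM. For H2-K1 they were Arih1, Galnt1, Cnep1r1, Rock2 and Usmg5 (r from 0.931 to 0.971), and for H2-T3 they were Tbc1d22a, Rab17, Ngef, Man1a and Pttg1ip (0.968 to 0.984). For Tap1 they were Smc5, Lpar6, Tmem194, Pla2g3 and Cd247, a chain of the T cell receptor complex (0.886 to 0.950). The points share their libraries, and values of this size are the highest of all those compared.

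Other genes of the pathway were followed in lists. Of 46 tested genes of the class I pathway, 9 were higher and 3 lower in humanized mice by the exact test at FDR below 0.01, where 9.2% and 10.1% of all tested genes were. Under total counts 6 were higher and 8 lower (3.89% and 18.2% of all), and under epithelial scaling 4 and 8 (2.47% and 14.2% of all). Calr, Psme1 and Cd8b1 lost their calls under both of these scalings, and Psme2 and Fcgrt under the epithelial one alone. Leaving out 1 mouse ended the call of Psme1 in 3 of 11 cases (germ-free mouse 2, 3 or 5) and that of Cd8b1 in 2 (germ-free mouse 2 or 5). Among 6 genes of peptide loading, Canx and Calr, the chaperones calnexin and calreticulin that hold heavy chains during folding, were higher at LFCs of 0.66 (SE 0.06, FDR = 5.53e-16) and 0.42 (SE 0.13, FDR = 0.0089). Tapbp, Tapbpl, Pdia3 and Erap1 did not pass, though Pdia3 did without humanized mouse 5. Calr was not called by the quasi-likelihood test or in 8 of 11 fits that left out 1 mouse, and its LFC was 0.24 under total counts (FDR = 0.187, exact test). No gene of this list was lower at an unadjusted p below 0.05, or with the quasi-likelihood test or DESeq2.

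Of 5 immunoproteasome and PA28 genes, 3 were higher. Psmb8, an interferon-inducible catalytic subunit encoded between Tap1 and Tap2, rose from 9.67 ± 1.62 to 18.1 ± 3.14 RPKM (LFC 0.90, SE 0.13, FDR = 1.09e-08). The proteasome activator subunits Psme2 and Psme1 had LFCs of 0.49 (SE 0.07, FDR = 2.29e-07) and 0.27 (SE 0.06, FDR = 0.00209). Psmb9 and Psmb10, the other inducible catalytic subunits, were at LFCs of 0.21 and 0.18 and did not pass.

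Among 11 tested regulators of class I transcription, only Irf1, an interferon-induced transcription factor that binds IRF-type elements, was higher, at 28.5 ± 1.74 RPKM in germ-free and 46.1 ± 5.89 RPKM in humanized mice (LFC 0.70, SE 0.09, FDR = 9.51e-11). Its groups did not overlap. Nlrc5, the class I transactivator, had an LFC of 0.71 with a large error (SE 0.44, FDR = 0.262), and the interferon γ gene Ifng had between 0 and 7 counts per mouse and was filtered out. No regulator was lower at FDR below 0.01 by the exact test, the quasi-likelihood test or DESeq2. At an unadjusted p below 0.05, 3 were lower and 3 higher, Irf1 included, where at least 2905 and 2780 of all 19863 tested genes were. Under total counts and under epithelial scaling, 4 of the 11 were lower by the exact test (Ifngr1, Nfkb1, Rela and Rfxap), and without humanized mouse 5 there were 2, Ifngr1 and Rela.

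Genes for receptors of class I molecules included Cd8a and Cd8b1, the chains of the CD8 co-receptor, which were higher at LFCs of 1.74 (SE 0.25, FDR = 2.52e-08) and 0.96 (SE 0.23, FDR = 0.00127). Klrd1, Klrc1 and Pirb did not pass. Cd8a was also counted among the T and NK cell markers, of which 6 of 8 were higher. Levels were low, at 0.487 ± 0.0577 and 1.63 ± 0.608 RPKM for Cd8a, and Cd8b1 had between 15 and 37 counts per mouse.

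Of 4 class I-like genes outside the locus, Fcgrt, the neonatal Fc receptor that pairs with β2-microglobulin, was higher (LFC 0.56, SE 0.10, FDR = 1.88e-05). Mr1, which presents microbial vitamin B metabolites to MAIT cells, was lower at 1.07 ± 0.171 against 0.494 ± 0.227 RPKM (LFC −1.12, SE 0.29, FDR = 0.0024). Cd1d1, which presents lipids to NKT cells, was lower as well (LFC −0.71, SE 0.13, FDR = 2.85e-04). The quasi-likelihood test kept Cd1d1 and lost Mr1 (FDR = 0.0144), which was also lost without germ-free mouse 3 or 4, and with the replicate block both were lost. The iron regulator gene Hfe was at an LFC of −0.37 (SE 0.10, FDR = 0.0208, exact test) and was called lower with DESeq2, under total counts, under epithelial scaling and without humanized mouse 4. Among the 23 other H2 class I genes, 15 were tested, and the only call was the barely expressed H2-M9, lower at 0.684 ± 0.182 against 0.282 ± 0.148 RPKM. DESeq2 called it too, while the quasi-likelihood test (FDR = 0.0237), the replicate block and 5 of 11 fits without 1 mouse (germ-free mouse 1, 3, 4 or 5 or humanized mouse 6) did not. None of them was higher by the exact test, the quasi-likelihood test or DESeq2, and 5 were at an unadjusted p below 0.05, among them H2-Q3, annotated as an unprocessed pseudogene, at an LFC of 1.46 (SE 0.47, FDR = 0.0107). At least 2780 of all 19863 tested genes were higher at that unadjusted cut-off. H2-Q3 was called higher by the exact test without humanized mouse 2, 5 or 6, at an LFC of 1.58 and FDR = 0.00435 without mouse 5.

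None of 7 class II genes passed the exact test or the quasi-likelihood test, while DESeq2 called 1, and 3 were at an unadjusted p below 0.05, with a median LFC of 0.64. Of all 19863 tested genes, DESeq2 called 2185 higher, and at least 2780 were higher at an unadjusted p below 0.05. Without humanized mouse 5, in which Cd74 was at 34.1 RPKM against 118 to 349 RPKM in the other humanized mice, 5 of the 7 were higher, where 9.52% of all tested genes were. The classical class I genes and B2m were called with and without that mouse.

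**Figure D5:**
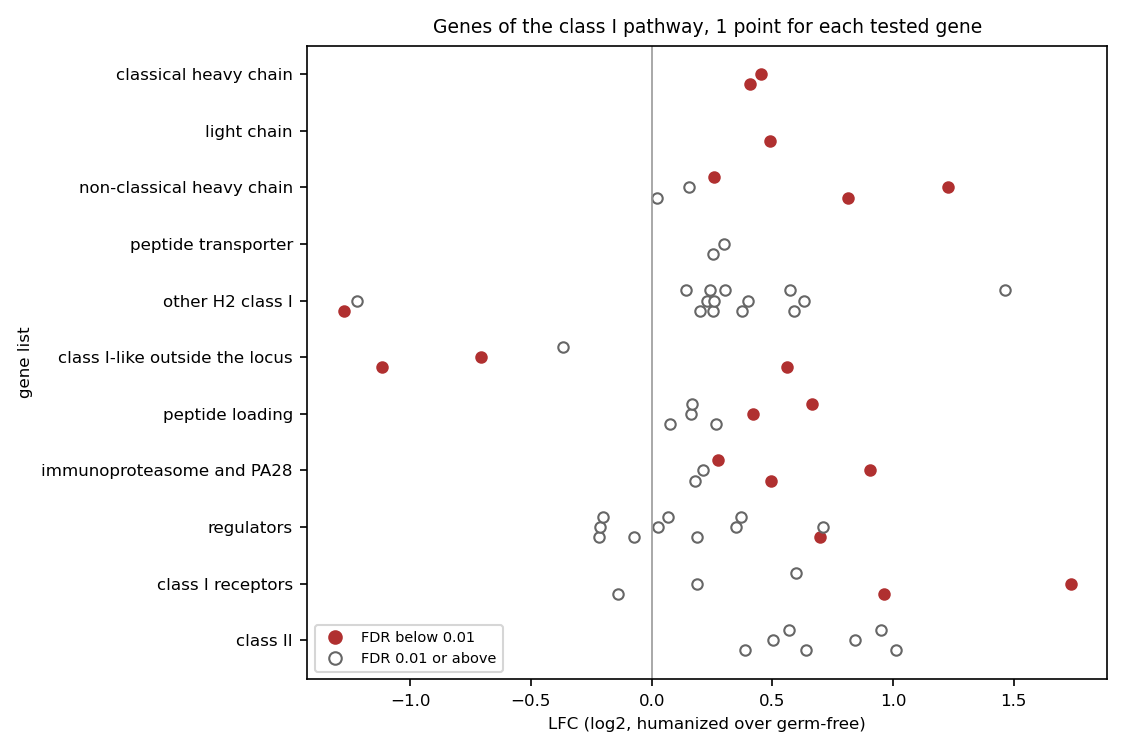
LFC of humanized over germ-free mice (log2, horizontal axis, TMM normalization) for each tested gene of the class I pathway lists, with red points at FDR below 0.01 in the exact test. Red points stand on the right for the classical and light chain genes, Psmb8, Canx, Irf1 and Cd8a, and on the left for Mr1, Cd1d1 and H2-M9; under epithelial scaling only H2-Q2, Psmb8, Canx, Irf1 and Cd8a of those on the right remained called.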

How the data were processed

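Paired-end reads of 101 bp were mapped by the authors to mm10 (TopHat version 2.1.0, Bowtie version 2.2.3) and assigned to genes with featureCounts of Subread 1.4.6-p5, and they deposited the raw counts of 43346 genes with positions and gene lengths. The deposited length equalled the exon length in GENCODE M21 for 9 of the 10 genes and differed for H2-K1. Here edgeR 4.0.16 (R 4.3.3) was applied after the methods of the study: filterByExpr at its defaults (minimum count 10), TMM, estimateDisp, and the exact test with Benjamini–Hochberg adjustment over all 19863 genes kept, at FDR below 0.01. SE and 95% intervals came from edgeR's quasi-likelihood fit. RPKM used TMM-normalized libraries and the deposited lengths, and ratios used counts plus 0.5. Nothing in the labels names a batch.

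Alternatives were the quasi-likelihood test, DESeq2 1.42.0, RLE, total-count and epithelial marker scaling, FDR below 0.05, no filter or a minimum of 10 counts in each mouse, summed heavy chains, each mouse left out, and a replicate block. Leaving out humanized mice 5 and 6 together was added later. The members and lists were chosen with earlier results of these data known. Genes that could be named were the 10 members, list genes at FDR below 0.01, other H2 class I genes with a mean of at least 1 RPKM, and the 5 genes most like each of H2-K1, H2-T3 and Tap1, and not all of the list genes are. Nlrc5, Ifng, Cd74, Csf1r, Cd68, Lyz2, the genes at FDR of 0.01 or above and the motifs were named after their values or letters were seen. The fits were tested on simulated data. Reads were not analysed here.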

Additional observations from a re-analysis of the deposited data

Results flagged for a closer look

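Tap1 in germ-free mouse 1 stood apart from the other germ-free mice, at 5.15 RPKM against 3.84 RPKM in the next highest mouse, a gap that was 0.741 of the range of the group. It was the only such case among 28 groups of values examined, of which chance is expected to give about 1 in 20.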

How the results depend on the processing

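The number of the 10 genes higher in humanized mice was 6 or 7 with the quasi-likelihood test, DESeq2, every other filter and threshold, and RLE. It was 4 with total counts, and 1 (H2-Q2) with epithelial marker scaling and with the replicate block. Leaving out 1 mouse gave 5 to 7. Under epithelial scaling the LFC was −0.13 for H2-T3, −0.21 for H2-M3 and −0.0065 for Tap2, and under total counts −0.043 for H2-T3 and −0.15 for H2-M3. Leaving out 1 mouse gave H2-M3 an LFC from −0.085 to 0.083, negative without germ-free mouse 3 or humanized mouse 3, and the log2 Tap1 to Tap2 ratio a difference from −0.042 to 0.15, negative without germ-free mouse 4, humanized mouse 2 or humanized mouse 6. Without humanized mice 5 and 6 together, H2-T3 was at −0.00019. The cause was not tested.

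Mice with the same number in both groups did not deviate together (correlations from −0.13 to 0.09, against −0.22 to 0.27 for unlike numbers). So few pairs cannot exclude that the numbers pair the mice, and the main analysis used no pairing. With the number as a replicate block and the quasi-likelihood test, 1 of the 10 genes was called (H2-Q2), 506 of all genes were higher and 506 lower, and no pathway gene was lower (0). In the 5 pairs that share a number the log2 Tap1 to Tap2 ratio differed by −0.0024, and the smallest p this exact test can give is 0.0625. The block uses up degrees of freedom, and humanized mouse 6, whose number has no germ-free partner, adds nothing to the difference in that fit.

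Among all genes, 2780 were higher at FDR below 0.05, 490 with epithelial scaling and 773 with total counts, and 1298 were lower with the quasi-likelihood test and 3609 with total counts. Other pathway genes, here 53 tested genes with the 7 class II genes, numbered 4 higher and 8 lower with epithelial scaling, 8 lower with total counts, 1 lower with the quasi-likelihood test, 5 lower at FDR below 0.05, and 16 higher without humanized mice 5 and 6. Of all 19863 tested genes, 2812 were lower with epithelial scaling and 2905 at FDR below 0.05. Without humanized mice 5 and 6, 1795 of 19911 were higher. Leaving out 1 mouse gave 6 to 16 pathway genes higher, the most without humanized mouse 5, where 5 of the 16 were class II genes, and 1 to 5 lower, the fewest without germ-free mouse 3 or 4 and the most without humanized mouse 5. Over all tested genes it gave 1336 to 2088 higher and 1486 to 2323 lower. With 5 mice against 6, an exact permutation test cannot go below 0.00216.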
